A study of Mus musculus with 21 samples.

Results

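The 10 genes described here, *Alcam*, *L1cam*, *Chl1*, *Nrcam*, *Nfasc*, *Ncam1*, *Ncam2*, *Cntn1*, *Cntn2* and *Cntn4*, encode cell adhesion molecules of the immunoglobulin superfamily. These genes were chosen by name from a list of this family, with earlier results of these data known. Shares of them called, set beside shares of all genes, therefore only describe this set. They are 10 of the 55400 genes counted in the series. Mouse embryonic stem cells of a wild-type C57BL/6 background were differentiated as embryoid bodies towards spinal motor neurons, and polyadenylated RNA was sequenced from 21 libraries in 7 groups of 3 biological replicates. The untreated groups were D4 (progenitors, pMN), D4H8 (8 h later, pnMN), D5 (newborn motor neurons, nbMN) and D6 (maturing motor neurons, mMN). Groups D4H8+GSKJ4, D5+GSKJ4 and D6+GSKJ4 were collected at the last 3 of these times after about a day with GSKJ4, an inhibitor of the Kdm6 demethylases that remove methyl groups from lysine 27 of histone H3. All cultures received 1 µM retinoic acid and 0.5 µM of the Smoothened agonist SAG from day 2, and 5 µM DAPT, a gamma-secretase inhibitor that blocks Notch signalling, was added on day 4, when the D4 group was collected. On day 5 the medium was replaced by one with DAPT but without retinoic acid and SAG, so stage and medium cannot be told apart in the steps into D4H8 and D6. The stem cells were grown on mouse embryonic fibroblast feeders and the embryoid bodies were sequenced without sorting, so each value is an average over all cells of a culture. Fewer cells of a type and less RNA per cell cannot be told apart in such samples.

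Immunoglobulin-type adhesion molecules sit in the plasma membrane of growing axons, where they bind copies of themselves or of one another on neighbouring cells. The L1 family (*L1cam*, *Chl1*, *Nrcam*, *Nfasc*) spans the membrane and is tied to the spectrin skeleton through ankyrins. Contactins are held by a lipid anchor and signal through partners in the same membrane, and Ncam1 carries polysialic acid, which weakens adhesion while axons grow. In the embryonic spinal cord *Cntn2* (also called TAG-1) marks newly formed neurons including motor neurons, L1cam and Ncam1 coat their axons, and Alcam (BEN, DM-GRASP) is found on motor axons.

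Library totals ran from 14982115 to 34383842 counts with a median of 16238435. Summed FPKM (fragments scaled to exonic length and library size) over 8 motor neuron markers was 9.49 to 24.24 in the D4 libraries and 611.6 to 671.7 at D6, and 8 general neuron markers went from 38.48 to 75.94 up to 3329 to 3890. Floor plate markers also rose, from 29.34 to 38.49 at D4 up to 68.72 to 106.0 at D6 (4 of 5 called higher; *Shh* 0.14 to 0.43 against 14.5 to 23.1), and spinal interneuron markers from 2.93 to 3.67 up to 8.1 to 14.05 (5 of 8 tested called higher). Their part in the members' rise was not tested. Glial markers summed to 9.24 to 10.14 at D6, endothelial and blood markers to 1.98 to 3.89 and fibroblast markers to 26.66 to 65.48, against 7.86 to 10.6, 1.43 to 3.07 and 26.5 to 63.45 at D4. Single markers in these sums did change. Of 4 glial markers tested 2 were called higher and 2 lower. Of 4 endothelial and blood markers 2 were called higher and 0 lower, and of 9 fibroblast markers 3 higher and 0 lower. Pluripotency markers were still at 12.16 to 100.3 at D6. The second treated D5 library stood apart. In it 39381 genes had no count, where the remaining 20 libraries ranged from 29339 to 32805 such genes. Only 262 genes had exactly 1 count in it, where the rest had 1438 to 2828. Its total of 15705324 counts was within the range of the others. Values of low genes in this library are therefore uncertain, and the cause of the pattern was not tested.

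The loci of these genes were long. The median gene span was 256.4 kb against 17.39 kb for 21941 other protein-coding genes of the mm10 annotation, and 8 of the 10 (80.0%) exceeded 100 kb against 11.32% of the others. *Cntn4* (chromosome 6, 105677660 to 106699310, plus strand) was the longest at 1022 kb, of which 99.2% was intron. *Cntn2* (chromosome 1, 132509427 to 132543256, minus strand) was the shortest at 33.8 kb, and its neighbour on the same strand, 21433 bases away, was *Nfasc* (132564690 to 132741797). *L1cam* (X, 73853778 to 73896105) shared 100 exonic bases, 1.36% of its exonic length, with *Arhgap4*, and *Ncam1* (9, 49502136 to 49798925) shared 417 bases, 4.81%, with an antisense gene. The strand setting of the counting is not given in the sources used here, so reads in that antisense overlap cannot be assigned with certainty.

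RefSeq promoter windows of 250 bases before the transcription start (GRCm38.p6) were found for 9 of the 10 genes, 14 windows in all. Some of these starts lie inside the annotated gene, among them those of the *L1cam* and *Cntn4* windows. For the *Cntn2* window and a *Cntn1* window, the 50 bases after the start were found in no annotated transcript of the gene. Windows of 3 genes are printed because these genes had unlike time courses: *L1cam* rose steeply, *Nrcam* was already present at D4, and *Ncam2* was near 0 until D5 and low at D6. None of the printed windows overlaps an annotated exon. Letters matching CAGATG on either strand, an E-box of the kind bound by neurogenic basic helix-loop-helix factors, are in capitals. The windows are chrX:73880835-73881084 (minus strand) for *L1cam*, chr12:44328635-44328884 (plus strand) for *Nrcam* and chr16:81200447-81200696 (plus strand) for *Ncam2*.
L1cam: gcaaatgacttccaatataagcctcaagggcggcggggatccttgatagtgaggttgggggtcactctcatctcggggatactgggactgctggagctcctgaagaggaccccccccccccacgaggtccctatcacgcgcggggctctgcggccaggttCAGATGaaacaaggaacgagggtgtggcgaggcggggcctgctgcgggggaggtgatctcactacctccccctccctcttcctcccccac
Nrcam: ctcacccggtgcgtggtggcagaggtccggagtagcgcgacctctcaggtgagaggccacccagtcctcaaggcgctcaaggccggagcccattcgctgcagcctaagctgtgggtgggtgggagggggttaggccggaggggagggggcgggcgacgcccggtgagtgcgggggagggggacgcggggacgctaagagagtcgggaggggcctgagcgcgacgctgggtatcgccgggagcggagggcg
Ncam2: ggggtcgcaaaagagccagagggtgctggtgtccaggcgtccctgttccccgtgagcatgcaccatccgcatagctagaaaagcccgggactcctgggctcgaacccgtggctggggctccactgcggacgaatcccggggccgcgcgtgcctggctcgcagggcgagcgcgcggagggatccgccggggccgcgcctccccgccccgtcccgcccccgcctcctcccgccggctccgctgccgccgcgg
The GC content was 63.2%, 72.4% and 75.2% in that order, with 12, 25 and 32 CpG dinucleotides, against a median GC content of 52.4% over 32851 windows of the same length. CAGATG was present in both overlapping *L1cam* windows, 2 of 14, and in 14.4% of all windows. CAGCTG, another E-box, was in 1 *Cntn4* window and in 13% of all windows. TAATTA, a homeodomain core, was in 1 *Cntn4* window (4.84% of all), ATCAAT, a Onecut motif, in 1 *Cntn1* window (6.72%) and CCCNNGGG, an Ebf motif, in 1 *Chl1* window (11.8%). Each motif was searched on both strands, none of these matches is evidence of a bound site, and most windows of the 10 genes held none of the 5 motifs.

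All 10 genes were higher at D6 than at D4, where 32.9% of 17519 genes tested were called higher (adjusted p under 0.05). *Ncam2* and *Cntn4* passed the filter on low counts only through their D6 libraries, so they had to be higher there to be tested at all, and *Chl1* passed only at D5 and D6. Of the 6 members that passed at every stage (*Alcam*, *L1cam*, *Nrcam*, *Nfasc*, *Ncam1* and *Cntn2*), 6 rose, with a median log2 fold change of 5.50 against -0.04 over all genes tested. *L1cam* had the largest change of these 6, a log2 fold change of 7.95 (SE 0.22, 247-fold, adjusted p = 2.65e-11), and *Nrcam* the smallest, 2.40 (SE 0.20, 5.26-fold, adjusted p = 2.13e-07).

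**Figure D1:**
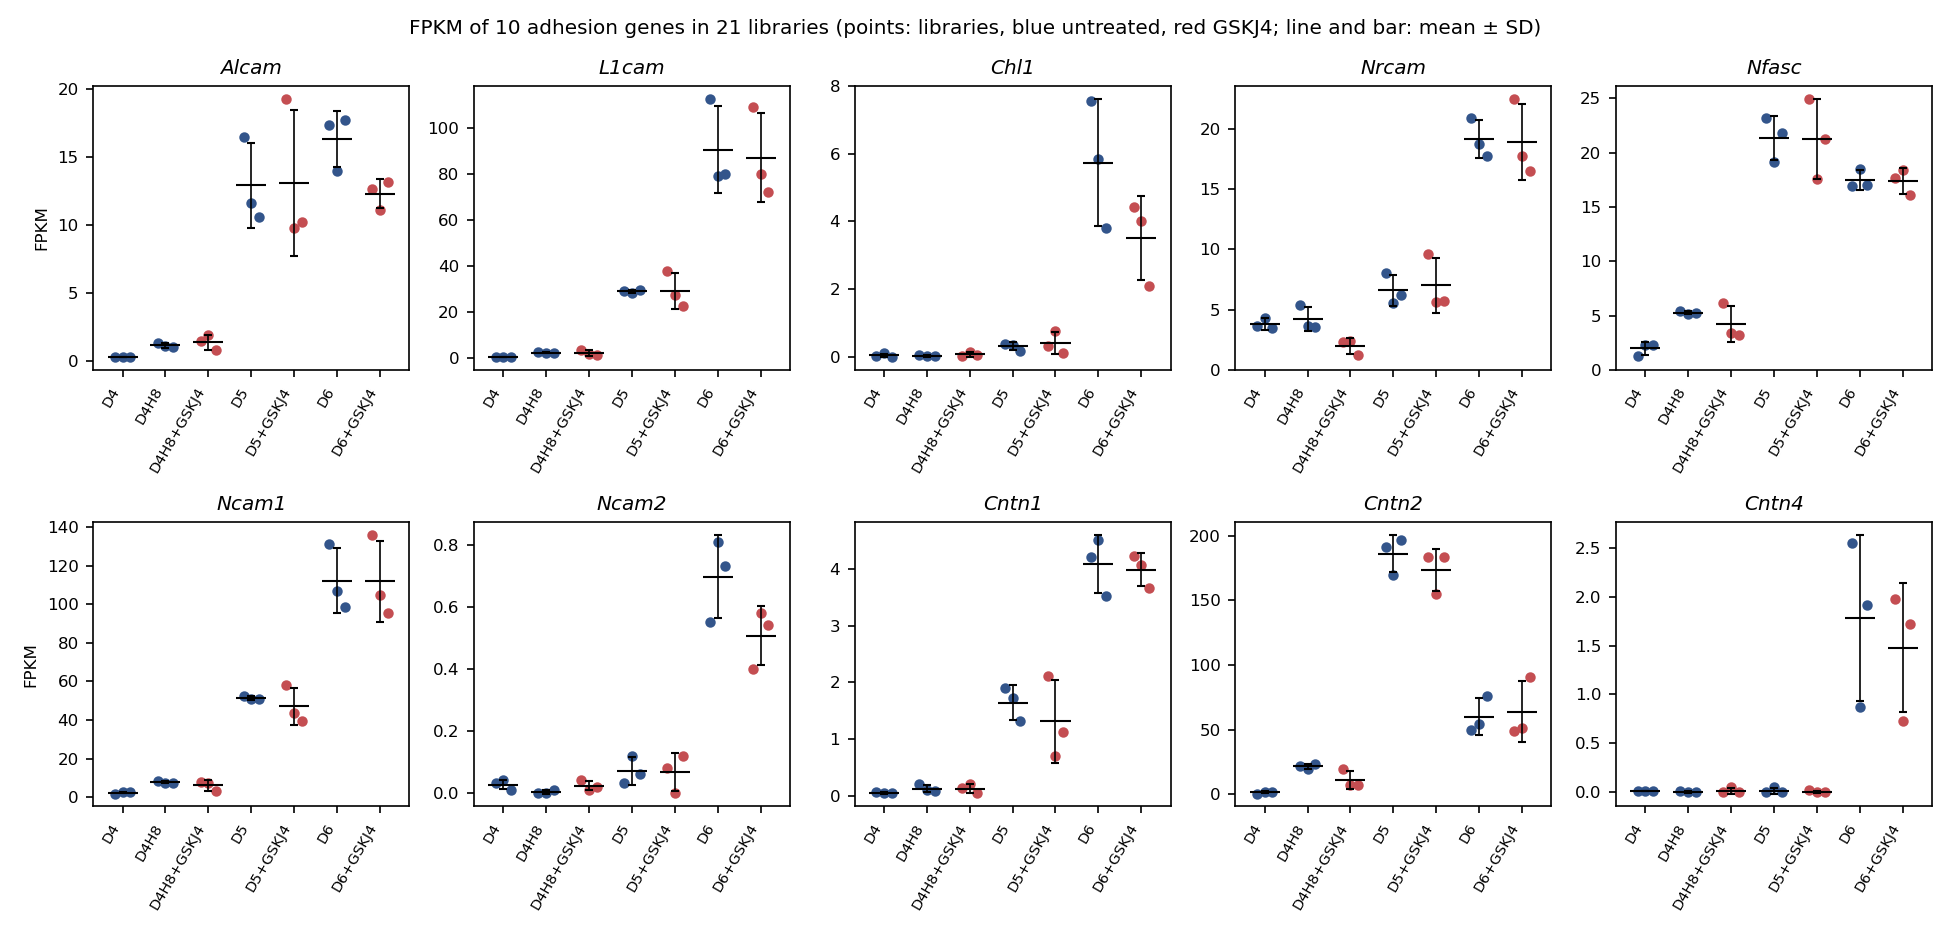
FPKM of each of the 10 genes in all 21 libraries, one panel per gene, with the groups on the x axis, FPKM on the y axis (its scale differs by panel), a point for each library (blue untreated, red GSKJ4) and a line and bar for mean ± SD. *Cntn2* is highest at D5 (mean 186.0 FPKM), while *L1cam*, *Nrcam*, *Chl1* and *Ncam1* are highest at D6.

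The L1 family differed within itself in timing. *L1cam*, whose product promotes axon growth and bundling, was at 0.34, 0.41 and 0.41 FPKM in the D4 libraries, 2.55, 2.15 and 2.01 at D4H8, 29.1, 28.0 and 29.5 at D5, and 112.5, 79.2 and 79.7 at D6. No library of one stage overlapped the next, and every step rose: 2.50 (SE 0.19) on the log2 scale from D4 to D4H8, 3.68 (SE 0.18) to D5 and 1.77 (SE 0.16) to D6. The adjusted p was 1.46e-05, 2.17e-08 and 4.55e-06 for these steps.

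*Nrcam*, which gathers channels at axon initial segments and nodes, had the highest D4 level of the family, at 3.63, 4.35 and 3.46 FPKM. At D4H8 it was at 5.40, 3.69 and 3.58, at D5 at 8.04, 5.52 and 6.23, and at D6 at 20.9, 18.8 and 17.8 FPKM. The first step was not called, with a log2 fold change of 0.10 (SE 0.20, 95% interval -0.32 to 0.52, adjusted p = 0.827). The step from D4H8 to D5 was small, 0.64 (SE 0.20, adjusted p = 0.0248), and was not called when any 1 of 4 libraries was left out (D4H8 replicate 2 or 3, D5 replicate 1 or 3), with an adjusted p of up to 0.126. The D6 libraries lay well above all D5 libraries, a rise of 1.65 (SE 0.20, adjusted p = 3.72e-05).

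*Nfasc* encodes neurofascin, which organises the nodes of Ranvier and the axon initial segment. Its libraries were at 1.33, 2.32 and 2.30 FPKM at D4, 5.47, 5.15 and 5.24 at D4H8, 23.2, 19.1 and 21.8 at D5, and 16.9, 18.5 and 17.0 at D6. It rose in the first steps, by 1.38 (SE 0.16, adjusted p = 0.000107) and 2.02 (SE 0.16, adjusted p = 7.44e-07) on the log2 scale. From D5 to D6 its log2 fold change was -0.18 (SE 0.15, 95% interval -0.50 to 0.14, adjusted p = 0.387), with all 3 D6 libraries below the lowest D5 library on the FPKM scale.

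*Chl1*, a close homologue of L1 in axon guidance and neuronal migration, was near 0 until D5. Its FPKM was 0 to 0.1 in the 6 libraries of D4 and D4H8, then 0.39, 0.36 and 0.18 at D5 and 7.56, 5.86 and 3.80 at D6. Over the summed counts of the 3 libraries (3396 at D6, 183 at D5 and 29 at D4), the D6 rate was 18.5 times that at D5 (95% exact interval 16.0 to 21.6) and 137 times that at D4 (95.2 to 204.8), intervals that cover counting error only. The fitted log2 fold change into D5 was 3.41 (SE 0.66, adjusted p = 0.00162), a call lost with limma on log2(FPKM + 1) (0.35, adjusted p = 0.175), and that into D6 4.33 (SE 0.51, adjusted p = 3.12e-05).

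The NCAM pair was unequal in level throughout. *Ncam1*, a homophilic adhesion molecule of axons and the neuromuscular junction, was at 1.92, 2.51 and 2.79 FPKM at D4, 8.58, 7.29 and 7.58 at D4H8, 52.4, 50.7 and 50.6 at D5, and 131.1, 107.0 and 98.5 at D6. Stages did not overlap, and it rose at each step, by 1.66 (SE 0.15, adjusted p = 2.86e-05), 2.71 (SE 0.16, adjusted p = 8.58e-08) and 1.25 (SE 0.15, adjusted p = 3.35e-05) on the log2 scale. *Ncam2*, best known from olfactory axons, had 7, 7 and 1 counts at D4, 1, 0 and 2 at D4H8, 6, 23 and 11 at D5, and 101, 146 and 130 at D6. That was 0.55, 0.81 and 0.73 FPKM at D6, below every other member's D6 mean. Its D6 rate was 9.41 times the D5 rate (95% exact interval 6.78 to 13.4) from 377 against 40 counts, an interval that covers counting error only. The fitted step into D5 was 3.95 (SE 0.78, adjusted p = 0.00188) and that into D6 3.35 (SE 0.50). *Ncam2* passed the count filter only through D6, so a rise into D6 was needed for it to be tested, and no p-value is given for that step.

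The stage with the highest mean differed among the contactins, and D6 was the last stage sampled. *Cntn2*, which guides early axons, was at 0.66, 1.77 and 2.21 FPKM at D4 and 22.3, 19.6 and 23.4 at D4H8. It reached 191.4, 169.8 and 196.8 at D5 and was at 50.01, 54.3 and 76.4 FPKM at D6. It was the member with the largest change within the first 8 h, a log2 fold change of 3.80 (SE 0.30, 13.96-fold, adjusted p = 1.58e-05), rose by a further 3.10 (SE 0.29, adjusted p = 3e-06) to D5, and then fell by 1.52 (SE 0.27, adjusted p = 0.000771).

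*Cntn1*, a partner of Caspr proteins, rose later and to a lower level, from 0.07, 0.04 and 0.05 FPKM at D4 to 1.9, 1.72 and 1.31 at D5 and 4.21, 4.52 and 3.52 at D6. Its D4H8 libraries held 0.20, 0.10 and 0.08, and the first step, 1.32 (SE 0.39), missed the threshold (adjusted p = 0.0838), which it passed without D4H8 replicate 3 (adjusted p = 0.0423) and in DESeq2 (adjusted p = 0.0205). Over 19 alternatives it passed in 4, and the highest adjusted p was 0.766. *Cntn1* then rose by 3.57 (SE 0.31, adjusted p = 1.76e-06) and 1.43 (SE 0.26, adjusted p = 0.000998).

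*Cntn4*, a contactin of olfactory and visual axons, had 0 to 7 counts in each of the 9 untreated libraries before D6. At D6 it had 353, 117 and 254 counts, or 2.55, 0.87 and 1.91 FPKM. All D6 libraries were far above the earlier ones and varied widely among themselves. From 724 counts at D6 against 7 at D5 and 4 at D4, its D6 rate was 103 times the D5 rate (95% exact interval 49.9 to 257.7) and 212 times the D4 rate (82.3 to 779.0), intervals that cover counting error only. All 7 D5 counts were in replicate 2, and the fitted log2 step from D5 to D6 was 6.76 with it and 11.1 without it, against no count at all.

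*Alcam*, which binds itself and CD6, was at 0.30, 0.28 and 0.29 FPKM at D4, 1.33, 1.11 and 0.99 at D4H8, 16.5, 11.6 and 10.6 at D5, and 17.3, 13.9 and 17.7 at D6. It rose by 1.94 (SE 0.23, adjusted p = 0.00015) and then 3.48 (SE 0.20, adjusted p = 9.36e-08) on the log2 scale. The D5 and D6 ranges overlapped, and the step of 0.45 (SE 0.18) had an adjusted p of 0.0703. With the replicate number as a block, read as pairing these stages, it was 0.47 (SE 0.13, adjusted p = 0.0121), where 20.8% of genes were called higher. Leaving out single libraries from the unblocked fit gave 0.295 to 0.69. Among these fits the step was called only without D5 replicate 1 (0.69, adjusted p = 0.00571) and without D6 replicate 2 (0.56, adjusted p = 0.0493). Over 20 alternatives 4 had an adjusted p under 0.05, and the highest was 0.347.

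Counted by step, 5 of the 10 rose from D4 to D4H8 (*Alcam*, *L1cam*, *Nfasc*, *Ncam1* and *Cntn2*), where 4.06% of all genes tested were called higher. From D4H8 to D5, 9 of 10 rose, all but *Cntn4*, against 17.2% of all genes. From D5 to D6, 7 of 10 rose (*L1cam*, *Chl1*, *Nrcam*, *Ncam1*, *Ncam2*, *Cntn1* and *Cntn4*) against 19.2% called higher, and *Cntn2* alone of the 10 fell, against 15.1% called lower. The rises of *Ncam2* and *Cntn4* into D6 followed from the filter, which they passed only there, and *Chl1* passed only at D5 and D6. Of the 6 members that passed at every stage, 5, 6 and 3 rose in these steps, 1 fell in the last, and the medians of their log2 fold changes were 1.80, 2.91 and 0.85, against -0.02, 0.01 and -0.02 over all genes. Adjacent steps share the libraries of the stage between them.

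**Figure D2:**
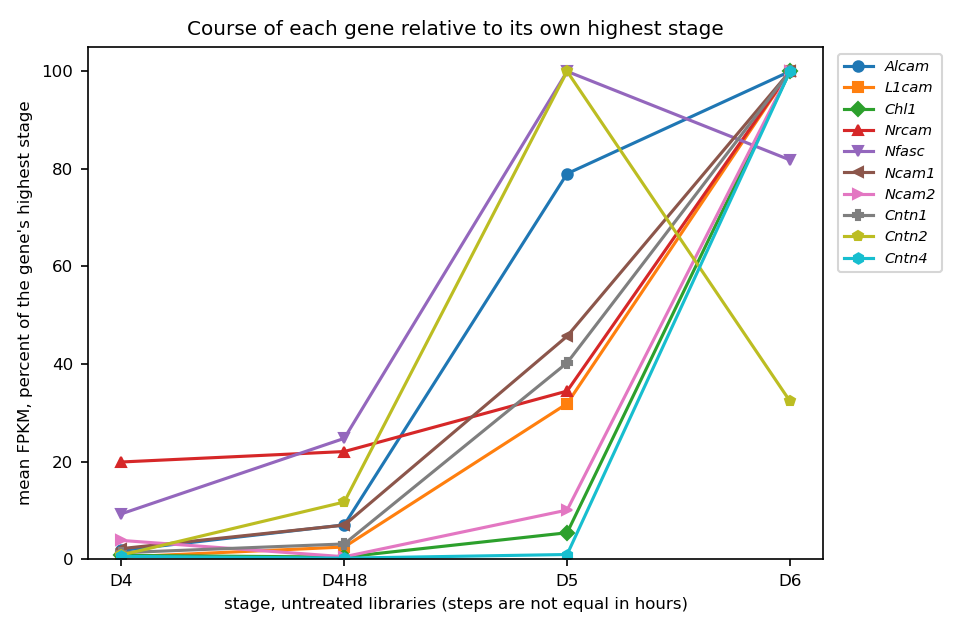
Mean FPKM of each gene at D4, D4H8, D5 and D6 as a percentage of that gene's highest stage, with a line for each gene. *Nfasc* and *Cntn2* have their highest mean at D5 and stand at 81.8% and 32.4% of it at D6, where the step of *Nfasc* was not called. *Chl1* and *Cntn4* are at 5.40% and 0.938% of their D6 level at D5.

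The genes thus reached different shares of their highest stage by D5. *Alcam* was at 79.0% of its D6 mean, *Ncam1* at 45.7%, *Cntn1* at 40.2%, *Nrcam* at 34.4% and *L1cam* at 31.9%. *Ncam2* stood at 10.0%, *Chl1* at 5.40% and *Cntn4* at 0.938%.

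Per length, the order of the genes changed with stage. At D4 *Nrcam* was highest (mean 3.81 FPKM), apart from *Ncam1* (2.41), *Nfasc* (1.98) and *Cntn2* (1.55), whose ranges overlapped in this order, and *L1cam* (0.387) and *Alcam* (0.290) were lower again. At D4H8 and D5 *Cntn2* led with 21.8 and 186.0 FPKM, each library above those of every other member. At D6 the order of the means was *Ncam1* (112.2), *L1cam* (90.5), *Cntn2* (60.2), *Nrcam* (19.2), *Nfasc* (17.5), *Alcam* (16.3), *Chl1* (5.74), *Cntn1* (4.08), *Cntn4* (1.78) and *Ncam2* (0.697). Within it *Ncam1* and *L1cam* overlapped, as did *Nrcam* with *Nfasc*, *Nfasc* with *Alcam*, and *Chl1* with *Cntn1*, whereas *L1cam* and *Cntn2* were apart.

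**Figure D3:**
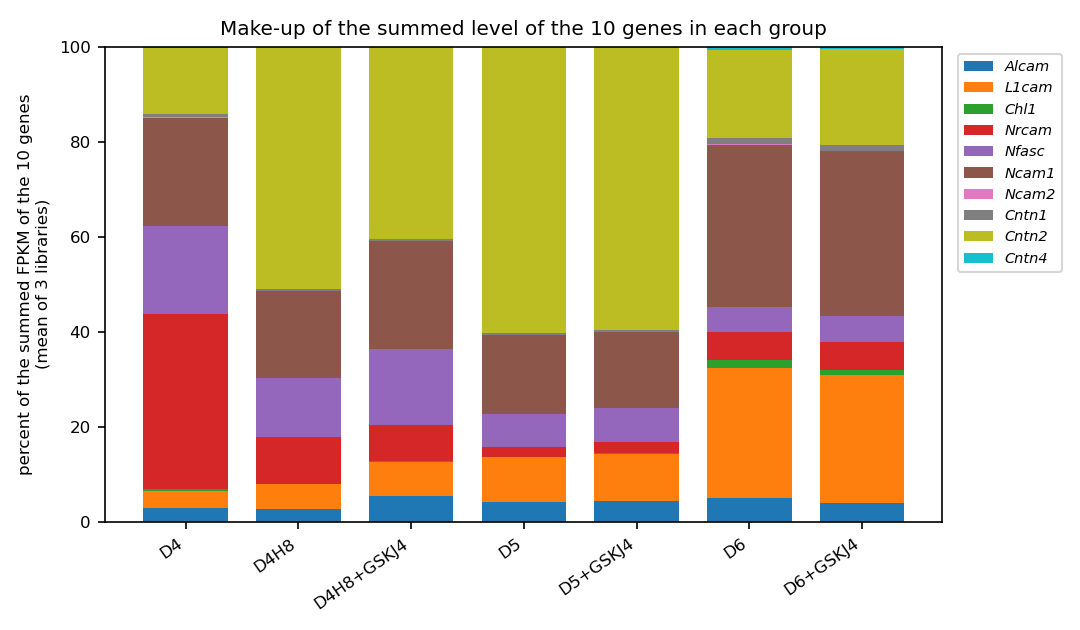
Share of the summed FPKM of the 10 genes taken by each gene, as stacked percentages (y axis, mean of 3 libraries) for the 7 groups on the x axis. *Nrcam* holds 36.8% at D4, *Cntn2* 60.2% at D5, and *Ncam1* (34.1%) with *L1cam* (27.4%) most of D6.

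Summed over the 10 genes, FPKM was 10.6 ± 1.95 (SD, n = 3) at D4, 42.6 ± 3.44 at D4H8, 309.0 ± 19.3 at D5 and 328.1 ± 31.4 at D6. Library totals overlapped between D5 (287.1 to 322.9) and D6 (303.8 to 363.6), but the makeup of the sum had turned over. *Cntn2* went from 14.02% of the sum at D4 to 51.1% at D4H8, 60.2% at D5 and 18.6% at D6. *L1cam* went from 3.70% through 5.25% and 9.35% to 27.4%, and *Nrcam* from 36.8% to 2.13% at D5 and 5.85% at D6.

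For most of these genes treated and untreated libraries overlapped at each stage. At D4H8 7 of the 10 were tested, since *Chl1*, *Ncam2* and *Cntn4* were below the count filter, and edgeR called 0 of 7 at an adjusted p under 0.05, where 3.96% of 16269 genes were called in either direction. At an unadjusted p under 0.05 there were 2 of 7, *Nrcam* and *Cntn2*, against 25.1% of all genes. DESeq2 called the same 2 of the 7 members that it gave an adjusted p, against 12.8% of 15456 genes. Groups did not overlap in library-scaled counts for these 2 of 7, against 33.7% of all genes. By the unadjusted p and by overlap the members' share was near that of all genes.

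*Nrcam* was at 2.32, 2.37 and 1.24 FPKM in the treated D4H8 libraries, all below the untreated 5.40, 3.69 and 3.58, and also below the 3 D4 libraries. Its log2 fold change was -1.12 (SE 0.31, 95% interval -1.81 to -0.43, adjusted p = 0.071). Leaving out single libraries gave -1.34 to -0.852, and among these fits it was called only without treated replicate 2 (-1.34, adjusted p = 0.0403). Over 14 alternatives 5 had an adjusted p under 0.05, and the highest was 0.276.

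*Cntn2* was at 19.5, 7.11 and 7.43 FPKM with GSKJ4 against 22.3, 19.6 and 23.4 without, so the first treated library lay beside the untreated range and the other two far below it. Its log2 fold change was -0.99 (SE 0.35, 95% interval -1.77 to -0.20, adjusted p = 0.122). Leaving out single libraries gave -1.60 to -0.74, and among these fits it was called only without treated replicate 1 (-1.60, adjusted p = 0.00873). Over 14 alternatives 4 had an adjusted p under 0.05, and the highest was 0.322.

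The other 5 tested genes had intervals that included 0, from *Alcam* at 0.24 (95% interval -0.58 to 1.06) to *Ncam1* at -0.37 (-1.12 to 0.38), and *Cntn1* was the least certain (-1.39 to 1.23). The summed FPKM of the 10 was 41.0, 24.1 and 17.0 in the treated D4H8 libraries. In the same libraries the motor neuron marker sum was 15.84 to 37.73 against 60.59 to 63.44 untreated, the neural progenitor sum 112.6 to 210.8 against 288.4 to 424.9, and the neuron sum 91.6 to 271.1 against 219.4 to 418.5. The fibroblast marker sum over 9 genes was 65.28 to 83.22 against 32.34 to 52.25, and pluripotency markers 108.6 to 246.2 against 55.95 to 240.7. The part of these cell type markers in the *Nrcam* and *Cntn2* values was not tested.

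**Figure D4:**
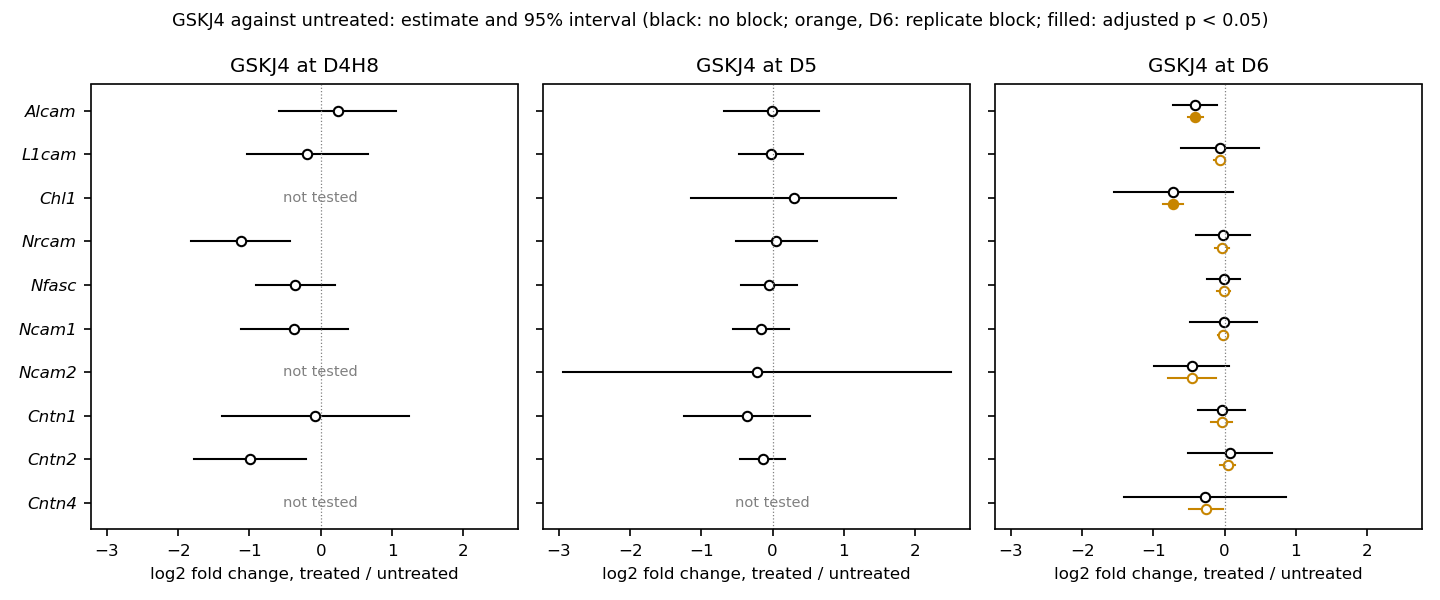
Log2 fold change of GSKJ4 over untreated at D4H8, D5 and D6 for each gene, with 95% intervals; black is the fit without a replicate block, orange (D6) the fit with it, and filled points have an adjusted p under 0.05. *Nrcam* (-1.12) and *Cntn2* (-0.99) lie below 0 at D4H8, and the filled points are *Alcam* and *Chl1* at D6.

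At D5 edgeR called 0 of 9 genes tested, where 0.00613% of 16309 genes were called, and 0 of 9 had an unadjusted p under 0.05 (4.7% of all genes) or groups that did not overlap (11.7%). DESeq2 also called 0. *Cntn2* was at 183.3, 155.0 and 183.2 FPKM with GSKJ4, a log2 fold change of -0.14 (95% interval -0.46 to 0.17), and *Nrcam* was at 9.65, 5.65 and 5.76, a log2 fold change of 0.05 (-0.52 to 0.62). *L1cam* was at 37.7, 27.2 and 22.4 FPKM, on both sides of the untreated 28.0 to 29.5. Leaving out the second treated library, which stands apart, moved *Cntn2* to -0.05, *Nrcam* to 0.20, *L1cam* from -0.02 to 0.04, *Chl1*, which had 144 counts there against 77 and 22, from 0.29 to -0.49, and *Ncam2*, which had 0 counts there, from -0.22 to 0.35, with an adjusted p of 0.999 for each.

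At D6 all 10 were tested and edgeR called 0, as it did for 0% of all 16301 genes, and DESeq2 called 0. *Alcam* was the 1 member with an unadjusted p under 0.05 (1.36% of all genes), and *Alcam* and *Ncam2* had treated libraries all below the untreated ones, against 5.29% of genes whose groups did not overlap. *Alcam* was at 12.6, 11.1 and 13.2 FPKM with GSKJ4 against 17.3, 13.9 and 17.7, a log2 fold change of -0.42 (SE 0.13, 95% interval -0.72 to -0.11, adjusted p = 1). *Chl1* was at 4.44, 4.00 and 2.09 FPKM against 7.56, 5.86 and 3.80, and *Ncam2* was at 0.40, 0.58 and 0.54 FPKM against 0.55, 0.81 and 0.73. The treated library was the lower one in 3 of 3 replicate pairs for *Alcam*, *Chl1*, *Ncam2* and *Cntn4*, and in 2 of 3 for the other 6 genes. Among these 6 was *Cntn2*, whose log2 fold change was 0.07. Pairs were not counted over all genes, so these counts describe the libraries and are not read as an effect on the members.

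With the replicate number as a block, read as pairing the D6 libraries, 2 of the 10 were called lower, where 1.28% of genes were. *Chl1* fell by 0.73 on the log2 scale (SE 0.07, adjusted p = 2.79e-06) and *Alcam* fell by 0.41 (SE 0.05, adjusted p = 9.05e-05). *Ncam2* was at -0.46 (SE 0.16, adjusted p = 0.223) and *Cntn4* at -0.26 (SE 0.12, adjusted p = 0.407). *L1cam*, *Nrcam*, *Nfasc*, *Ncam1*, *Cntn1* and *Cntn2* were within 0.07 of 0 in this fit. In the same fit 2 of 9 fibroblast, 2 of 8 motor neuron, 1 of 7 spinal interneuron and 1 of 5 floor plate markers were also called lower, and 0 of 8 neuron markers; their part in the *Chl1* and *Alcam* values was not tested.

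Whether GSKJ4 acted differently between stages was tested as an interaction over 18 libraries, and edgeR called 0 of the 10 for D5 minus D4H8 (0.249% of 18103 genes called), 0 for D6 minus D4H8 (0.735%) and 0 for D6 minus D5 (0% of genes), as did DESeq2. At an unadjusted p under 0.05 there were 1 (*Nrcam*), 3 (*Nrcam*, *Cntn2* and *Chl1*) and 0 of the 10 in these comparisons, against 10%, 13.7% and 1.98% of all genes, with *Chl1* resting on D4H8 values near 0. The *Nrcam* difference was 1.17 (adjusted p = 0.345) for D5 minus D4H8 and 1.11 (adjusted p = 0.249) for D6 minus D4H8. The *Cntn2* difference for D6 minus D4H8 was 1.06 (adjusted p = 0.286). Leaving out single libraries gave 0.748 to 1.68 there and 0.561 to 1.45 for D5 minus D4H8. Among these fits each difference was called only without treated D4H8 replicate 1, which lay beside the untreated range (1.68, adjusted p = 0.00917, and 1.45, adjusted p = 0.0313). Over 26 alternatives 2 and 1 had an adjusted p under 0.05, and the highest was 0.534 and 0.802.

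Of 29 other immunoglobulin-type adhesion genes that were tested, 20 were higher and 4 lower at D6 than at D4, with a median log2 fold change of 1.77, against 32.9% of all genes higher and 31% lower. Among the 29 were *Cntn3* and *Cntn5*, which reached the level of the count filter in all libraries of a stage only at D6. The median and the counts by step were taken with both genes included. *Lsamp*, an adhesion molecule of limbic and other neurons, went from 0.0233 to 4.61 mean FPKM, a log2 fold change of 7.76 (SE 0.45, adjusted p = 5.19e-09). The synaptic adhesion gene *Cadm3* rose by 6.62 (SE 0.31, adjusted p = 6.96e-10) and *Dscam*, an axon guidance and self-avoidance receptor, by 5.47 (SE 0.42, adjusted p = 8.96e-08). *Bcam*, a laminin receptor, fell by 1.73 (adjusted p = 1.1e-06), *Kirrel*, which encodes a slit-diaphragm protein, fell by 1.23 (adjusted p = 1.71e-05), and *Jam3*, of cell junctions, fell by 0.85 (adjusted p = 0.00171). By step, 2, 10 and 17 of the 29 rose and 0, 2 and 5 fell.

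Of 22 genes for linkers, partners and modifiers of these molecules, 19 were higher and 1 lower at D6 than at D4, with a median of 2.51, and 7, 15 and 19 rose by step. *Ank3* and *Ank2*, the ankyrins that hold the L1 family to the membrane skeleton, went from 1.32 to 24.0 and from 2.04 to 19.7 mean FPKM, log2 fold changes of 4.26 (SE 0.15, adjusted p = 1.23e-10) and 3.33 (SE 0.21, adjusted p = 9.35e-09). *St8sia2* and *St8sia4*, the enzymes that build polysialic acid on Ncam1, rose by 4.89 (SE 0.30, adjusted p = 7.19e-09) and 5.55 (SE 0.35, adjusted p = 1.05e-08). *St8sia2* was ahead, at 6.22 FPKM at D4H8 and 38.6 at D6, whereas *St8sia4* was at 0.05 and 1.84. The microtubule protein gene *Dcx* rose by 8.18 (adjusted p = 3.73e-10), the semaphorin co-receptor *Plxna4* by 6.46 (adjusted p = 1.97e-10) and the growth cone gene *Gap43* by 5.99 (adjusted p = 1.08e-08). *Ezr*, of the membrane-actin linker ezrin, fell by 1.21 (adjusted p = 0.00151).

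**Figure D5:**
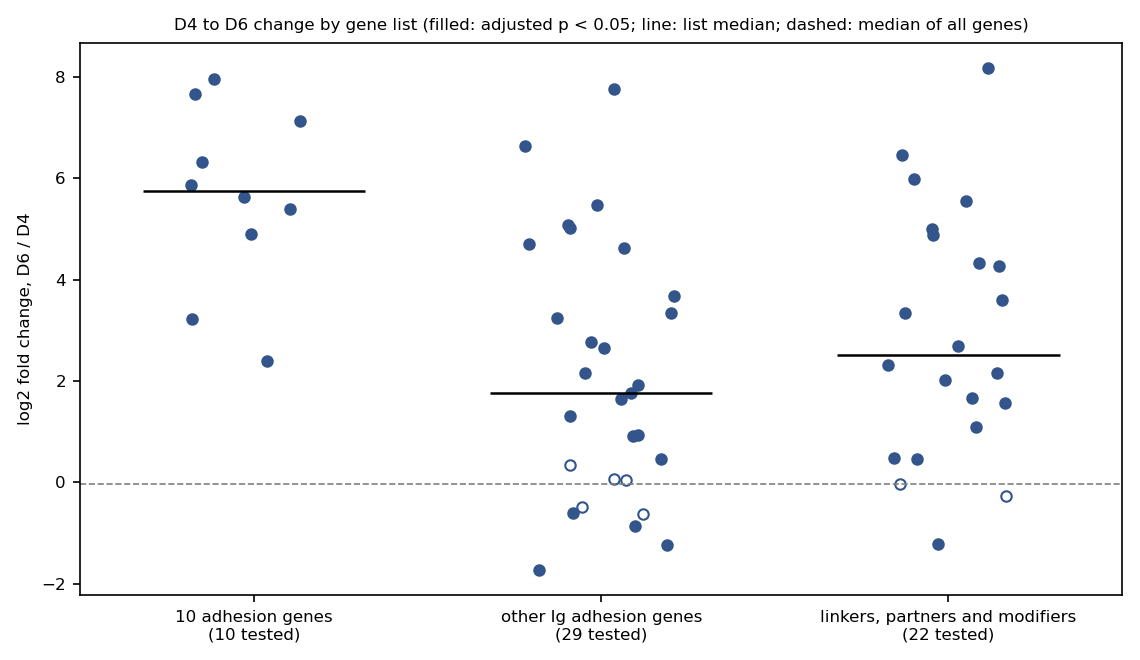
Log2 fold change from D4 to D6 (y axis) of each tested gene in the 10, the other immunoglobulin-type adhesion genes and the linkers and partners; each point is a gene, spread sideways at random and filled at an adjusted p under 0.05, solid lines are list medians and the dashed line the median of all genes. The 10 lie at 2.40 or more, and the list medians are 5.75, 1.77 and 2.51 against -0.04, the first with *Ncam2* and *Cntn4*, which were tested only through D6. The second includes *Cntn3* and *Cntn5*, which reached the level of the count filter in all libraries of a stage only at D6.

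Under GSKJ4 at D4H8, 3 of 25 other immunoglobulin-type genes tested were called, against 3.96% of all genes. *Dscaml1*, a Dscam relative, had a log2 fold change of 2.35 (adjusted p = 0.0492), *Nptn*, which encodes neuroplastin, 0.95 (adjusted p = 0.0387), and *Igsf9* -1.27 (adjusted p = 0.0498). These calls were lost on leaving out any 1 of 5, 4 and 4 of the 6 libraries, with an adjusted p of up to 0.215, 0.213 and 0.233. Of 21 linker and partner genes tested 0 were called there. At D6 with the replicate block, 4 of 29 other immunoglobulin-type genes and 4 of 22 linker and partner genes were called lower, against 1.28% of all genes, and 1 and 0 higher, against 0.294%; among the lower ones were *St8sia4* (adjusted p = 0.000212), *St8sia2* (adjusted p = 0.0409) and *Lsamp* (adjusted p = 0.000436). The targets of GSKJ4 were read at every stage: *Kdm6b* went from 17.5 FPKM at D4 to 40.1 at D6 (log2 fold change 1.28, adjusted p = 7.19e-06) and *Kdm6a* from 8.52 to 7.44 (log2 fold change -0.13, adjusted p = 0.339).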

How the data were processed

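The deposited tables held, for 55400 genes, raw counts per gene that the authors made with HISAT2 (mm10), SAMtools and HTSeq, and FPKM that the authors derived from counts and exonic length; recomputed FPKM differed from the deposited values by at most 0.005. Groups were taken from the labels. Counts were tested with edgeR 4.0.16 in R 4.3.3 (TMM scaling, filterByExpr with a minimum count of 10, quasi-likelihood tests, Benjamini-Hochberg adjustment over all genes tested, threshold 0.05). Stages were fitted on 12 untreated libraries, GSKJ4 at each stage on its 6 libraries, and interactions on 18. FPKM served for levels. The members and gene lists were chosen with earlier results of these data known. Companion genes named are, per list, up to 3 largest calls in each direction (D4 to D6) and up to 2 (each GSKJ4 comparison), plus the polysialic acid enzymes, ankyrins and Kdm6 genes. Same-numbered libraries deviated together in every pair (correlation over 0.1) for GSKJ4 at D6 (0.316 to 0.663), D4H8 to D5 (0.136 to 0.314) and D5 to D6 (0.144 to 0.31), and not in the other comparisons, so the block is read as pairing only there. This reading rests on the same data, and the labels do not say that equal numbers mark shared cultures. For GSKJ4 at D4H8 the correlations were 0.44, 0.0731 and 0.255. The block of the stage steps is a single fit over 12 libraries, D4 included. Intervals on low counts are exact conditional binomial. The procedure was tested on simulated data. Alternatives were DESeq2 1.42.0, other scalings and filters, a replicate block, 1 fit over 21 libraries, limma 3.58.1 on log2(FPKM + 1), and each library left out. Replicates are biological per the labels; how separate the cultures were is not stated.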

Additional observations from a re-analysis of the deposited data

How the results depend on the processing

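The counts of members called kept within 1.5 times of their values in most alternatives, and no called value changed sign. With at least 10 counts required in every library, 6 members were tested, of which 4 were called from D5 to D6 and 6 from D4 to D6, because fewer genes were tested. For GSKJ4 at D4H8, DESeq2, no filter and the replicate block each called 2 members (*Nrcam* and *Cntn2*), and 1 fit over all 21 libraries called 1, against 0; the cause was not tested. In that fit *Nrcam* from D4H8 to D5 had an adjusted p of 0.141. The replicate block called 2 members at D6 and 1 for D6 minus D4H8, and no filter called 1 for D5 minus D4H8 and 3 for D6 minus D4H8, each against 0. With the block, 6, 9, 9 and 10 members were called from D4 to D4H8, D4H8 to D5, D5 to D6 and D4 to D6, 0 for GSKJ4 at D5 and 0 for D6 minus D5; it changed the calls of *Cntn1* (D4 to D4H8, adjusted p = 0.0279), *Nrcam* and *Cntn2* (GSKJ4 at D4H8), *Alcam* and *Chl1* as reported, and *Nrcam* for D6 minus D4H8 (adjusted p = 0.0488), and no other member's. Leaving out single libraries gave 5 to 6 calls from D4 to D4H8, 8 to 9 from D4H8 to D5, 8 to 9 from D5 to D6 and 10 from D4 to D6. For GSKJ4 it gave 0 to 1 at D4H8, 0 at D5, 0 at D6, 0 to 1 for D5 minus D4H8, 0 to 1 for D6 minus D4H8 and 0 for D6 minus D5. Over all genes, GSKJ4 at D4H8 gave 644 calls without and 1235 higher and 1039 lower with the block (DESeq2 1136 and 838). At D5 DESeq2 gave 29 and 40 against 1, and at D6 the block gave 48 and 209 against 0. For the stage comparisons in the order above, the block called 838, 3246, 3645 and 5894 of 17519 genes higher and 107, 2173, 3008 and 5778 lower. For D6 minus D4H8 it called 304 of 18103 genes higher and 187 lower. Member counts of the other fits have no share over all genes beside them, so they are not read as results about the members. Under upper-quartile scaling the D4 to D6 log2 median over the genes tested shifted by -0.15. Depth limits *Ncam2*, *Cntn4* and, before D5, *Chl1*.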

Other observations

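The remaining contactins of the list, chosen for mention after their values were seen, were all low. *Cntn3* was at 0.76, 0.29 and 0.39 FPKM at D6 against 0.08 to 0.15 at D4 (log2 fold change 2.16, SE 0.60). *Cntn5* was at 0.66, 0.69 and 0.46 against 0.03 to 0.17 (2.66, SE 0.60), and *Cntn6* at 0.08, 0.16 and 0.16 against 0.01 to 0.04 (2.78, SE 0.60). Summed counts at D4 and D6 were 42 and 156 for *Cntn3*, 26 and 132 for *Cntn5*, and 7 and 42 for *Cntn6*. Only at D6 did *Cntn3* and *Cntn5* reach the level of the count filter in all libraries of a stage, so no p-value is given for these genes. *Cntn6* was already at 0.12, 0.16 and 0.19 at D5, when *Cntn5* had 0.03, 0.04 and 0.

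The genes whose log2 library-scaled counts (CPM) followed each member most closely over the 21 libraries were picked from genes with a mean CPM of at least 5. The libraries share stages, so these correlations describe courses only. *L1cam* ran closest to *Rtn1* (Pearson r 0.997), *Ncam1* to *Napb* (0.996), *Cntn1* to *St8sia3* (0.992), *Alcam* to *Slit2* (0.991), a secreted guidance cue, and *Nfasc* to *Clvs1* (0.988). *Chl1* ran closest to *Negr1* (0.978), another immunoglobulin-type adhesion gene, *Nrcam* to *Tmem35a* (0.977), *Cntn2* to *Ebf3* (0.973), *Cntn4* to *Epb41l3* (0.963) and *Ncam2* to *Dlgap1* (0.949).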
